A study of Homo sapiens with 12 samples.

Results

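THRSP and 9 genes of fatty acid and triglyceride synthesis (MID1IP1, FASN, ACACA, ACLY, SCD, ELOVL6, SREBF1, GPAM and DGAT2) were followed by RNA sequencing in MDA-MB-468, an established line of triple-negative breast cancer cells. The 10 genes were listed by symbol. The set was chosen by the THRSP counts of these same libraries, in which THRSP rose strongly, so THRSP levels are given as a description without a test, and the question put to the other 9 was whether they followed. All 10 had a row among the 23228 genes measured, and all 10 passed the filter on low counts that left 14541 genes.

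All cells carried estrogen receptor beta 1 (ERβ1, gene ESR2) under control of doxycycline. All were kept in medium without phenol red, with serum stripped by charcoal. In all 4 groups the serum stood at 10% for 3 days before treatment and at 5% during it. Uninduced cells received no doxycycline, and induced cells received 50 ng/mL for 48 hours. Each kind was then given 0.1% DMSO (vehicle) or 10 nM estradiol (E2) for 4 hours, giving 4 groups of 3 libraries, called induced E2, induced vehicle, uninduced E2 and uninduced vehicle. Doxycycline without E2 compares induced with uninduced vehicle libraries, and doxycycline with E2 compares induced with uninduced E2 libraries. Cells given doxycycline without the receptor gene were not analysed here, so doxycycline and the receptor cannot be told apart. The labels do not say that replicates were separate cultures, so p-values measure the spread between these libraries, which may be technical.

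New fatty acids are built in the cytosol from acetyl-CoA. ACLY makes acetyl-CoA from citrate, ACACA turns it into malonyl-CoA, and FASN joins these units into palmitate, which ELOVL6 lengthens and SCD desaturates. GPAM starts the assembly of glycerolipids and DGAT2 completes triglycerides, while SREBF1 encodes a transcription factor that drives many of these enzyme genes. THRSP and its relative MID1IP1 encode small proteins linked to lipogenesis, and THRSP is known as a thyroid hormone-responsive gene of liver, fat and lactating mammary tissue.

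Promoters are shown for THRSP, for its relative MID1IP1 and for SREBF1, the genes with the clearest differences below. Each sequence runs 5′ to 3′ along the gene, from 250 bases before the RefSeq start to 50 bases after it, on GRCh38.p14. Capitals mark matches to the motifs searched on both strands. THRSP lies at chr11:78063611-78063910 on the plus strand, MID1IP1 at chrX:38801209-38801508 on the plus strand and SREBF1 at chr17:17836937-17837236 on the minus strand.
THRSP: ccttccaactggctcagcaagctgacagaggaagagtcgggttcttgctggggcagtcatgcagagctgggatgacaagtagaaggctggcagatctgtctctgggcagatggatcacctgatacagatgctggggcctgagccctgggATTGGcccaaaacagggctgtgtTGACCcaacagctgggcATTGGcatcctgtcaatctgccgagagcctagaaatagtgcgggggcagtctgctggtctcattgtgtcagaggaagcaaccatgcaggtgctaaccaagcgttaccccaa
MID1IP1: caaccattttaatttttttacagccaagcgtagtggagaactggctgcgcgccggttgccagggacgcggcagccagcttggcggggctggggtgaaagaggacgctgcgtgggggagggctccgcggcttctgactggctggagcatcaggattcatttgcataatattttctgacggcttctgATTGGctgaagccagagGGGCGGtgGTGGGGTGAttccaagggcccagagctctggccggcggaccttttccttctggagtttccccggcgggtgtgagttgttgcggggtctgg
SREBF1: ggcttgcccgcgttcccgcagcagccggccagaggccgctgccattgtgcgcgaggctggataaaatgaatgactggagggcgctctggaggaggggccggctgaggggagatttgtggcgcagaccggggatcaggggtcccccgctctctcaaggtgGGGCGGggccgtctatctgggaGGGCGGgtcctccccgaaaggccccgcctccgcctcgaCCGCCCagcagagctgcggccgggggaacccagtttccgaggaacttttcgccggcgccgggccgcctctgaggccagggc

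The THRSP window held 1 match to GGTCA, the repeat from which estrogen response elements are built, on the reverse strand from base -78 to base -74 relative to the start. It also held 2 reverse matches to the CCAAT box, CCAAT. The MID1IP1 window held 1 sterol regulatory element, TCACNCCAC, next to a GC box, GGGCGG, and 1 CCAAT box, and the SREBF1 window held 3 GC boxes. Of 27305 RefSeq promoters of this length, 37.7% held GGTCA, 35.7% CCAAT, 44.6% GGGCGG and 1.15% TCACNCCAC. The whole estrogen response element (GGTCA, any 3 bases and TGACC) was found in 0.0659% of all promoters, the E-box CACGTG in 7.43% and the direct repeat of AGGTCA with any 4 bases between in 0.0183%, and none of these 3 was found in the 8 members matched (FASN and DGAT2 were not matched). In the CCAAT and GC box searches 5 and 7 of these 8 held a match. GGTCA was found in THRSP and ELOVL6 alone among the 8. A match is a description of the letters and not evidence of binding.

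Library totals ranged from 7889310 to 33326849 counts, and the library numbered 1 was the shallowest of each group. Levels are given as CPM, counts relative to the TMM-scaled library size. ESR2 lay between 1.06 and 2.26 CPM in the 6 uninduced libraries and between 98.0 and 134 CPM in the 6 induced ones, as the labels require. With E2 in induced cells ESR2 differed by -0.21, -0.20 and -0.23 log2 in the same-numbered pairs. The edgeR adjusted p was 0.119, or 3.00e-04 with the replicate number as a block. The epithelial genes KRT8, KRT18, KRT7 and EPCAM were abundant, with EPCAM at 416 to 450 TPM, a level per transcript length. KRT5 lay at 530 to 875 TPM. Of 10 tested markers of epithelium and cell line, edgeR called 4 higher and 1 lower for doxycycline with E2 (adjusted p under 0.05, background 15.0% and 13.0%). CDH1 rose by 1.17 log2, KRT8 and KRT18 by 0.53 log2 each and ERBB2 by 0.30 log2, whereas KRT5 fell by 0.52 log2. ESR1 lay between 1.07 and 2.10 TPM and PGR, the progesterone receptor, at 0.0267 TPM or less. Of 12 adipocyte markers, FABP4, CIDEA and RETN were at 0 in every library. LIPE lay at 2.87 to 4.3 TPM, CFD at 3.69 to 7.53 TPM and PLIN4 at 0.191 to 1.04 TPM. By edgeR at an adjusted p under 0.05, 1 of the 6 adipocyte markers tested rose with E2 in induced cells and 0 fell (9.85% and 6.61% of all genes). The one that rose was PLIN4, by 1.83 log2. The summed level of the adipocyte list was 62.3 to 65.8 TPM in induced E2 cells and 64.7 to 70.7 TPM in uninduced vehicle cells, most of it from the broadly expressed receptor ADIPOR2. Of the milk protein genes the caseins CSN1S1, CSN2 and CSN3 and LALBA were at 0 throughout. XDH, the 1 gene of that list tested, lay at 1.23 to 2.84 TPM. It was called lower with E2 in induced cells (-0.47 log2, SE 0.147, background 6.61%), a call that ended without any 1 of 9 libraries. XDH was also called lower for doxycycline with E2 (-0.76 log2, SE 0.14, background 13.0%). The hepatocyte markers APOA2 and TTR were at 0 in all libraries. The summed hepatocyte list, most of it TF (transferrin), was 18.7 to 28.2 TPM in uninduced vehicle, 17.8 to 26.8 TPM in uninduced E2, 25.6 to 39.9 TPM in induced vehicle and 23.8 to 40.0 TPM in induced E2 libraries. The groups overlapped. The TF difference with doxycycline was 0.53 log2 without E2 (SE 0.214, edgeR adjusted p = 0.242, or 2.06e-06 with the block) and 0.55 log2 with E2 (SE 0.206, adjusted p = 0.0605, or 2.14e-07 with the block). E2 in induced cells gave 0.01 log2 for TF. The part of hepatocyte markers in the THRSP result was not tested.

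THRSP was near the bottom of detection in uninduced cells and rose in steps. The uninduced vehicle libraries held 1.12, 1.62 and 1.27 CPM (9, 43 and 32 counts), and the uninduced E2 libraries 1.24, 2.09 and 1.87 CPM. With doxycycline and vehicle the 3 libraries held 12.4, 12.5 and 12.3 CPM, and with doxycycline and E2 they held 77.7, 102 and 105 CPM. The induced groups overlapped neither each other nor the uninduced groups, whereas the uninduced groups overlapped each other. The lowest induced E2 library was replicate 1.

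The fitted THRSP change was 8.80-fold for doxycycline without E2 (log2 3.14, SE 0.201) and a further 7.68-fold for E2 in induced cells (log2 2.94, SE 0.113). Doxycycline with E2 gave 52.4-fold (log2 5.71, SE 0.146). In uninduced cells the E2 difference was 0.37 log2 (SE 0.279). The E2 difference in induced cells exceeded that in uninduced cells by 2.57 log2 (SE 0.326). In bulk RNA, more cells with THRSP and more THRSP RNA per cell cannot be told apart.

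**Figure D1:**
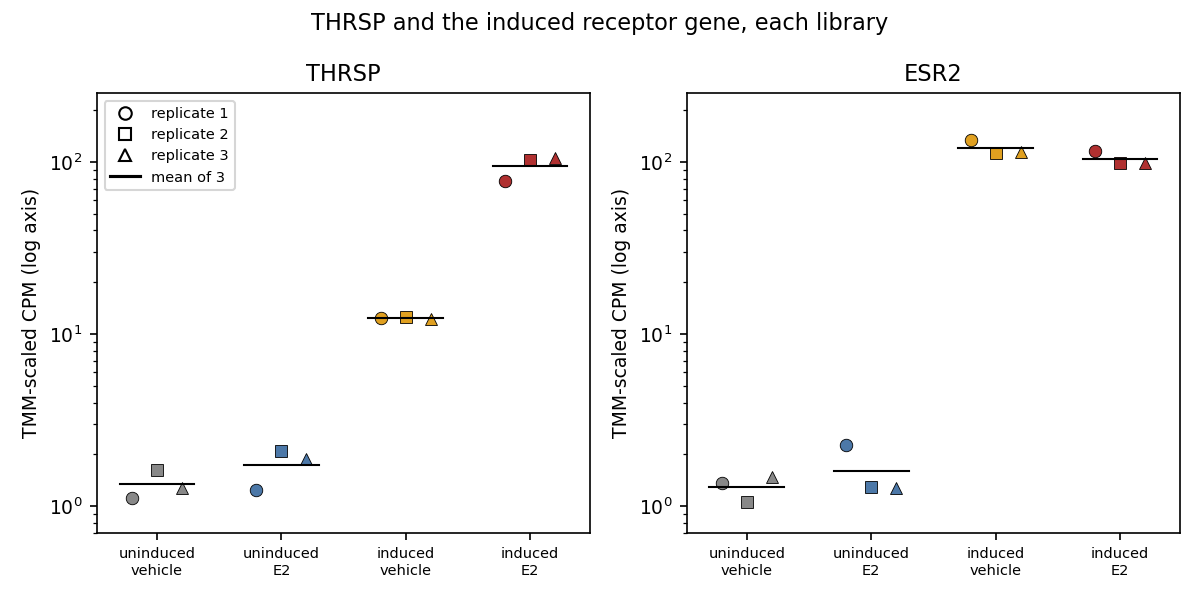
THRSP (left) and ESR2 (right) in each of the 12 libraries, as TMM-scaled CPM on a log axis. Symbols give the replicate number and bars the mean of 3. THRSP lies at 1.12 to 2.09 CPM in the uninduced libraries, 12.3 to 12.5 CPM in induced vehicle and 77.7 to 105 CPM in induced E2. ESR2 separates uninduced from induced libraries, and its induced groups overlap.

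THRSP shares its locus with other genes, which bears on its counts. In the GENCODE annotation it overlaps NDUFC2 and the read-through NDUFC2-KCTD14 on the opposite strand, and the sources used here do not give the strand setting of the counting, so reads in the shared stretch cannot be assigned to a strand. NDUFC2, a subunit gene of respiratory complex I, lay between 97.8 and 133 CPM in the 12 libraries. Its log2 change with E2 in induced cells was 0.11 (SE 0.0569, adjusted p = 0.241). NDUFC2-KCTD14 changed by 0.34 log2 in that comparison (SE 0.0842, adjusted p = 0.0126, or 0.0752 without induced E2 replicate 2). In log2 both neighbours moved by less than THRSP in that comparison. For doxycycline with E2 both were called higher, NDUFC2 by 0.29 log2 (adjusted p = 0.00139) and NDUFC2-KCTD14 by 0.40 log2 (adjusted p = 0.00212). For doxycycline without E2 the NDUFC2 mean went from 107 to 120 CPM (adjusted p = 0.209), while the THRSP mean went from 1.34 to 12.4 CPM. The part of reads from these neighbours in the THRSP counts was not tested.

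Whether the other 9 genes followed THRSP was asked first for E2 in induced cells. THRSP stood 7.68-fold higher there, and 0 of the 9 others were called higher and 0 lower by edgeR at an adjusted p under 0.05. Over all genes tested 9.85% were called higher and 6.61% lower. At an unadjusted p under 0.05 there were 4 (MID1IP1, ELOVL6, SREBF1 and GPAM). The share of all genes at that unadjusted threshold was not counted, so unadjusted counts here and below have no background and are not read as a result. DESeq2 and limma-voom called 0. The median change of the 9 was 0.04 log2, against 0.00 log2 for all genes. The largest difference, 0.23 log2 for SREBF1, had an upper 95% limit of 1.36-fold, which was the highest limit among the 9.

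Same-numbered libraries of different groups deviated together from their group means, so a model with the replicate number as a block was also fitted. With the block 2 of the 9 were called higher (background 13.5%), namely SREBF1 (adjusted p = 2.34e-05) and MID1IP1 (0.0300), and 1 was called lower (background 10.3%), namely SCD (0.0246). With the block the highest upper limit among the 9 was 1.24-fold, while THRSP stood 7.84-fold higher.

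For doxycycline without E2, where THRSP stood 8.80-fold higher, 0 of the 9 were called in either direction by edgeR, DESeq2 or limma-voom (background 2.44% higher and 1.37% lower), and 1, ELOVL6, had an unadjusted p under 0.05. With the block 3 of the 9 were called higher (background 5.54%), namely SCD (adjusted p = 1.62e-06), FASN (2.18e-04) and SREBF1 (3.92e-04), and 0 lower (background 4.48%). The highest upper limit was 1.40-fold, for SCD.

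For doxycycline with E2, where THRSP stood 52.4-fold higher, edgeR called 4 of the 9 higher and 1 lower. Of all genes tested 15.0% were called higher and 13.0% lower, or 1799 and 2679 genes under upper quartile scaling in place of 2184 and 1894. SREBF1, FASN, MID1IP1 and DGAT2 rose by 0.45, 0.31, 0.24 and 0.15 log2, and GPAM fell by 0.28 log2. The median of the 9 was 0.15 log2, against -0.01 log2 for all genes. With the block SCD joined the genes called higher (adjusted p = 8.26e-05), making 5 higher and 1 lower (background 19.1% and 18.2%). No upper limit among the 9 exceeded 1.58-fold, the limit for SREBF1. Upper quartile scaling and DESeq2 each called 2 of the 9 higher.

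For E2 in uninduced cells 0 of the 9 were called by edgeR, by DESeq2, by limma-voom or with the block, and 0 had an unadjusted p under 0.05. The background was 0% in each direction. The fitted differences ran from -0.09 log2 for DGAT2 to 0.07 log2 for GPAM. The difference between the E2 change in induced and in uninduced cells was called for 0 of the 9 (background 5.66% higher and 2.81% lower), with 3 at an unadjusted p under 0.05 (MID1IP1, GPAM and DGAT2). With the block 1 was called higher, SREBF1 (0.24 log2, SE 0.0497, adjusted p = 0.00201, background 8.86%), and 0 lower (background 5.88%).

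Separation of groups without overlap in CPM was counted beside these tests. With E2 in induced cells MID1IP1 and SREBF1 lay higher without overlap (2 of 9, background 16.6%) and GPAM lower (1 of 9, background 14.0%). For doxycycline without E2 MID1IP1 and ELOVL6 lay higher (2 of 9, background 10.5%) and 0 of 9 lower (background 10.1%). For doxycycline with E2 MID1IP1, FASN, SREBF1 and DGAT2 lay higher (4 of 9, background 20.9%) and GPAM lower (1 of 9, background 20.6%). In uninduced cells 0 of 9 lay higher with E2 (background 3.62%) and DGAT2 lay lower (1 of 9, background 2.80%).

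**Figure D2:**
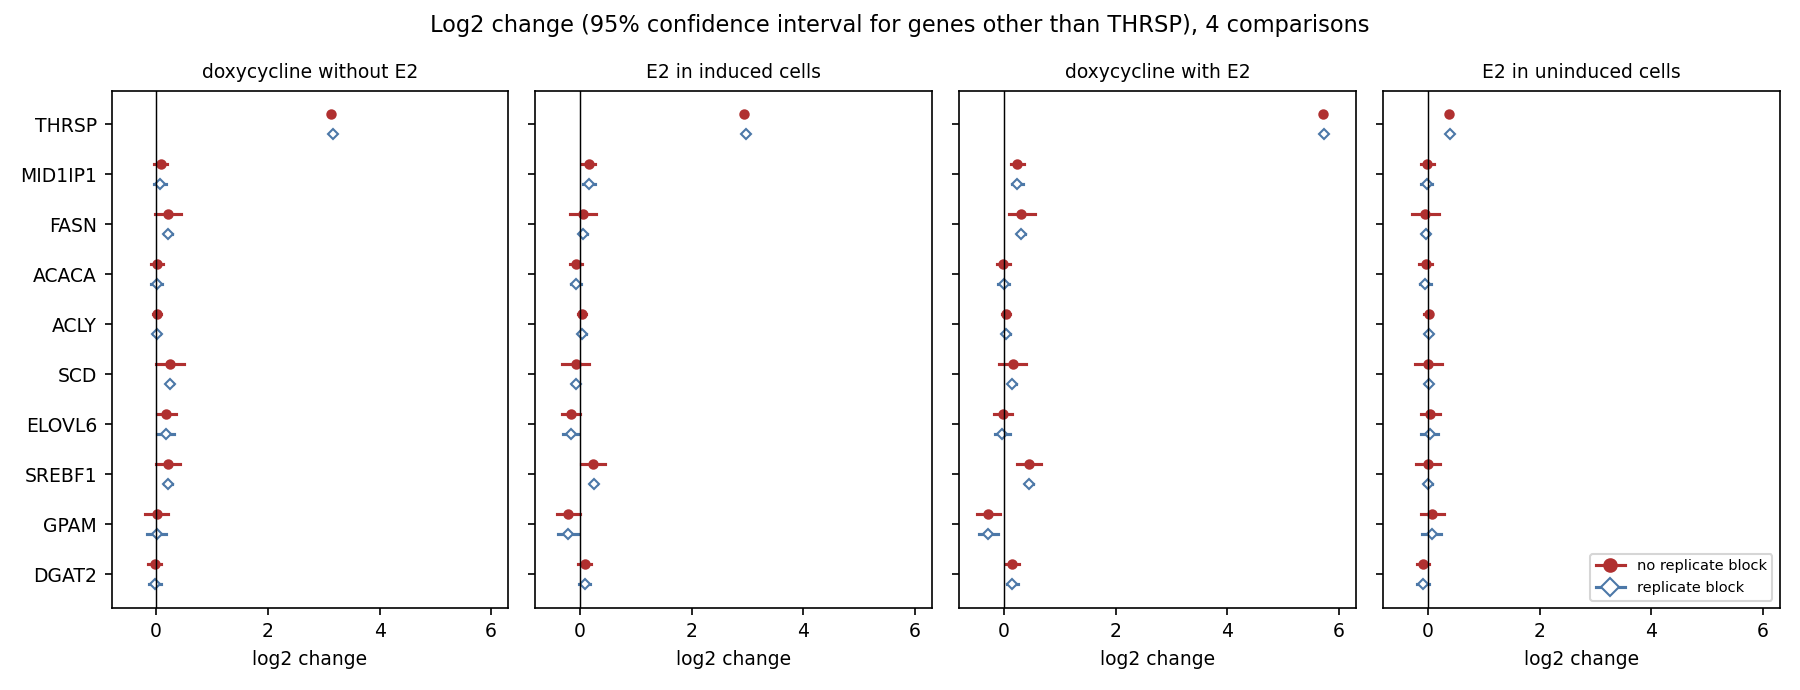
Log2 change of each of the 10 genes in the 4 comparisons, with 95% confidence intervals for the 9 genes other than THRSP, from the model without (circles) and with (diamonds) the replicate number as a block. THRSP lies at 2.94 to 5.71 in 3 of the comparisons, whereas the 9 other genes stay between -0.28 and 0.45 in all of them.

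MID1IP1, the relative of THRSP, differed little between groups. The uninduced vehicle libraries held 32.2, 36.1 and 36.7 CPM and the uninduced E2 libraries 35.4, 36.3 and 33.5 CPM. Induced vehicle libraries held 36.8, 37.7 and 37.5 CPM, and induced E2 libraries 43.0, 40.9 and 40.9 CPM. All 3 induced E2 libraries lay above the other 9. MID1IP1 rose by 0.24 log2 for doxycycline with E2 (SE 0.0512, adjusted p = 0.00229, higher in 3 of 3 same-numbered pairs). For E2 in induced cells it differed by 0.15 log2 (SE 0.0518, adjusted p = 0.0605), and the call appeared without uninduced vehicle replicate 1 (0.0337). MID1, whose microtubule-binding protein is the partner that names MID1IP1, fell with E2 in induced cells by 0.53 log2 (SE 0.0476, adjusted p = 2.14e-06), from 50.7, 55.7 and 51.8 CPM to 35.6, 36.9 and 37.5 CPM.

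SREBF1 had the largest change among the 9. It stood at 189, 241 and 240 CPM in uninduced vehicle and at 200, 244 and, in replicate 3, an intermediate level in uninduced E2 libraries. Induced vehicle libraries held 227, 271 and 281 CPM and induced E2 libraries 281, 317 and 320 CPM. Replicate 1 was the lowest library of every group, and the induced E2 libraries did not overlap the induced vehicle libraries. SREBF1 rose 1.36-fold for doxycycline with E2 (log2 0.45, SE 0.0982, adjusted p = 0.00322), and by 0.49, 0.38 and 0.49 log2 in the 3 same-numbered pairs. Within pairs the E2 step in induced cells was 0.31, 0.23 and 0.19 log2 and the doxycycline step without E2 was 0.26, 0.17 and 0.23 log2. SREBF1 overlaps RAI1 on the opposite strand, which differed by 0.22 log2 for doxycycline with E2 (SE 0.0632, adjusted p = 0.0158). That RAI1 call ended without uninduced E2 replicate 1 (0.0507) or 3 (0.0625), or induced E2 replicate 2 (0.0708). The part of RAI1 reads in the SREBF1 counts was not tested.

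ACLY, which makes the acetyl-CoA, was the steadiest of the 10 genes. Its 12 libraries lay between 457 and 500 CPM, a highest-to-lowest ratio of 1.09. The uninduced vehicle libraries held 469, 483 and 464 CPM and the induced E2 libraries 474, 490 and 500 CPM. For E2 in induced cells ACLY differed by 0.04 log2, with a 95% interval from 0.976-fold to 1.08-fold (edgeR adjusted p = 0.545).

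ACACA, the rate-limiting carboxylase, showed no step either. It lay between 112 and 131 CPM in all libraries, with 113, 131 and 120 CPM in uninduced vehicle and 112, 114 and 125 CPM in induced E2. The groups overlapped in each of the 4 comparisons, and for E2 in induced cells ACACA differed by -0.08 log2 (SE 0.0544, adjusted p = 0.432), with an upper limit of 1.03-fold.

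FASN was among the most abundant of these transcripts and differed between replicate numbers as well as between treatments. Uninduced vehicle libraries held 1564, 2040 and 1787 CPM and uninduced E2 libraries 1586, 1871 and 1753 CPM. Induced vehicle libraries held 1756, 2258 and 2210 CPM and induced E2 libraries 1872, 2306 and 2293 CPM. Replicate 1 was lowest in every group, and the lowest induced E2 value lay 1 CPM above the highest uninduced E2 value. FASN rose by 0.31 log2 for doxycycline with E2 (SE 0.110, adjusted p = 0.0475), or by 0.24, 0.30 and 0.39 log2 within pairs (adjusted p = 2.46e-07 with the block). E2 in induced cells gave 0.06 log2, with an upper limit of 1.22-fold.

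The FASN call for doxycycline with E2 was narrow in the model without the block. It ended without uninduced vehicle replicate 3 (0.0630), uninduced E2 replicate 1 (0.151) or 3 (0.100), induced vehicle replicate 3 (0.0562), or induced E2 replicate 2 (0.157) or 3 (0.157).

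SCD, the desaturase, was the most abundant of the 10 genes, and its steps were opposite for doxycycline and E2. Uninduced vehicle libraries held 1916, 2532 and 2437 CPM, uninduced E2 libraries 2030, 2433 and 2445 CPM, induced vehicle libraries 2367, 2897 and 2885 CPM and induced E2 libraries 2202, 2689 and 2810 CPM. The groups overlapped in every comparison, and replicate 1 was the lowest library of each. Within same-numbered pairs doxycycline without E2 gave 0.30, 0.19 and 0.24 log2, and E2 in induced cells gave -0.10, -0.11 and -0.04 log2. Both differences were called with the block (adjusted p = 1.62e-06 and 0.0246) and neither without it (0.336 and 0.728). ELOVL6, the elongase, lay between 17.1 and 22.4 CPM, with induced vehicle at 21.7, 20.1 and 22.4 CPM above uninduced vehicle at 17.6, 19.6 and 18.5 CPM. Its doxycycline difference without E2 was 0.18 log2 (SE 0.0771, adjusted p = 0.264, or 0.150 with the block). In induced E2 libraries ELOVL6 held 20.3, 17.1 and 19.8 CPM, a difference of -0.16 log2 from induced vehicle (adjusted p = 0.183).

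Triglyceride assembly genes moved apart. GPAM, the acyltransferase of the opening step, held 16.3, 14.4 and 19.1 CPM in uninduced E2 and 13.9, 13.6 and 13.4 CPM in induced E2 libraries, which did not overlap. Uninduced vehicle GPAM lay at 13.7, 16.4 and 16 CPM and induced vehicle GPAM at 15.9, 15.4 and 16.3 CPM. GPAM fell by 0.28 log2 for doxycycline with E2 (SE 0.0930, adjusted p = 0.0364). That call ended without uninduced E2 replicate 1 (0.0580) or 3 (0.190), induced vehicle replicate 2 (0.0523), or induced E2 replicate 1 (0.0608), 2 (0.0931) or 3 (0.0983). The difference itself was -0.16 log2 without uninduced E2 replicate 3, the highest GPAM library of the series.

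DGAT2, the acyltransferase of the closing step, held 28.2, 28.8 and 28.5 CPM in uninduced E2 and 30.1, 32.5 and 32.1 CPM in induced E2 libraries. It held 28.9, 30.2 and 31.5 CPM in uninduced vehicle and 30.0, 30.9 and 28.7 CPM in induced vehicle libraries, so the uninduced E2 libraries were the lowest group. DGAT2 rose by 0.15 log2 for doxycycline with E2 (SE 0.0503, adjusted p = 0.0417). Its call ended without uninduced vehicle replicate 2 (0.0547), uninduced E2 replicate 1 (0.0899), 2 (0.0829) or 3 (0.0971), or induced E2 replicate 2 (0.147) or 3 (0.122). The calls of MID1IP1 and SREBF1 for this comparison were kept when any 1 of the 12 libraries was left out, with adjusted p up to 0.0156 and 0.0171.

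**Figure D3:**
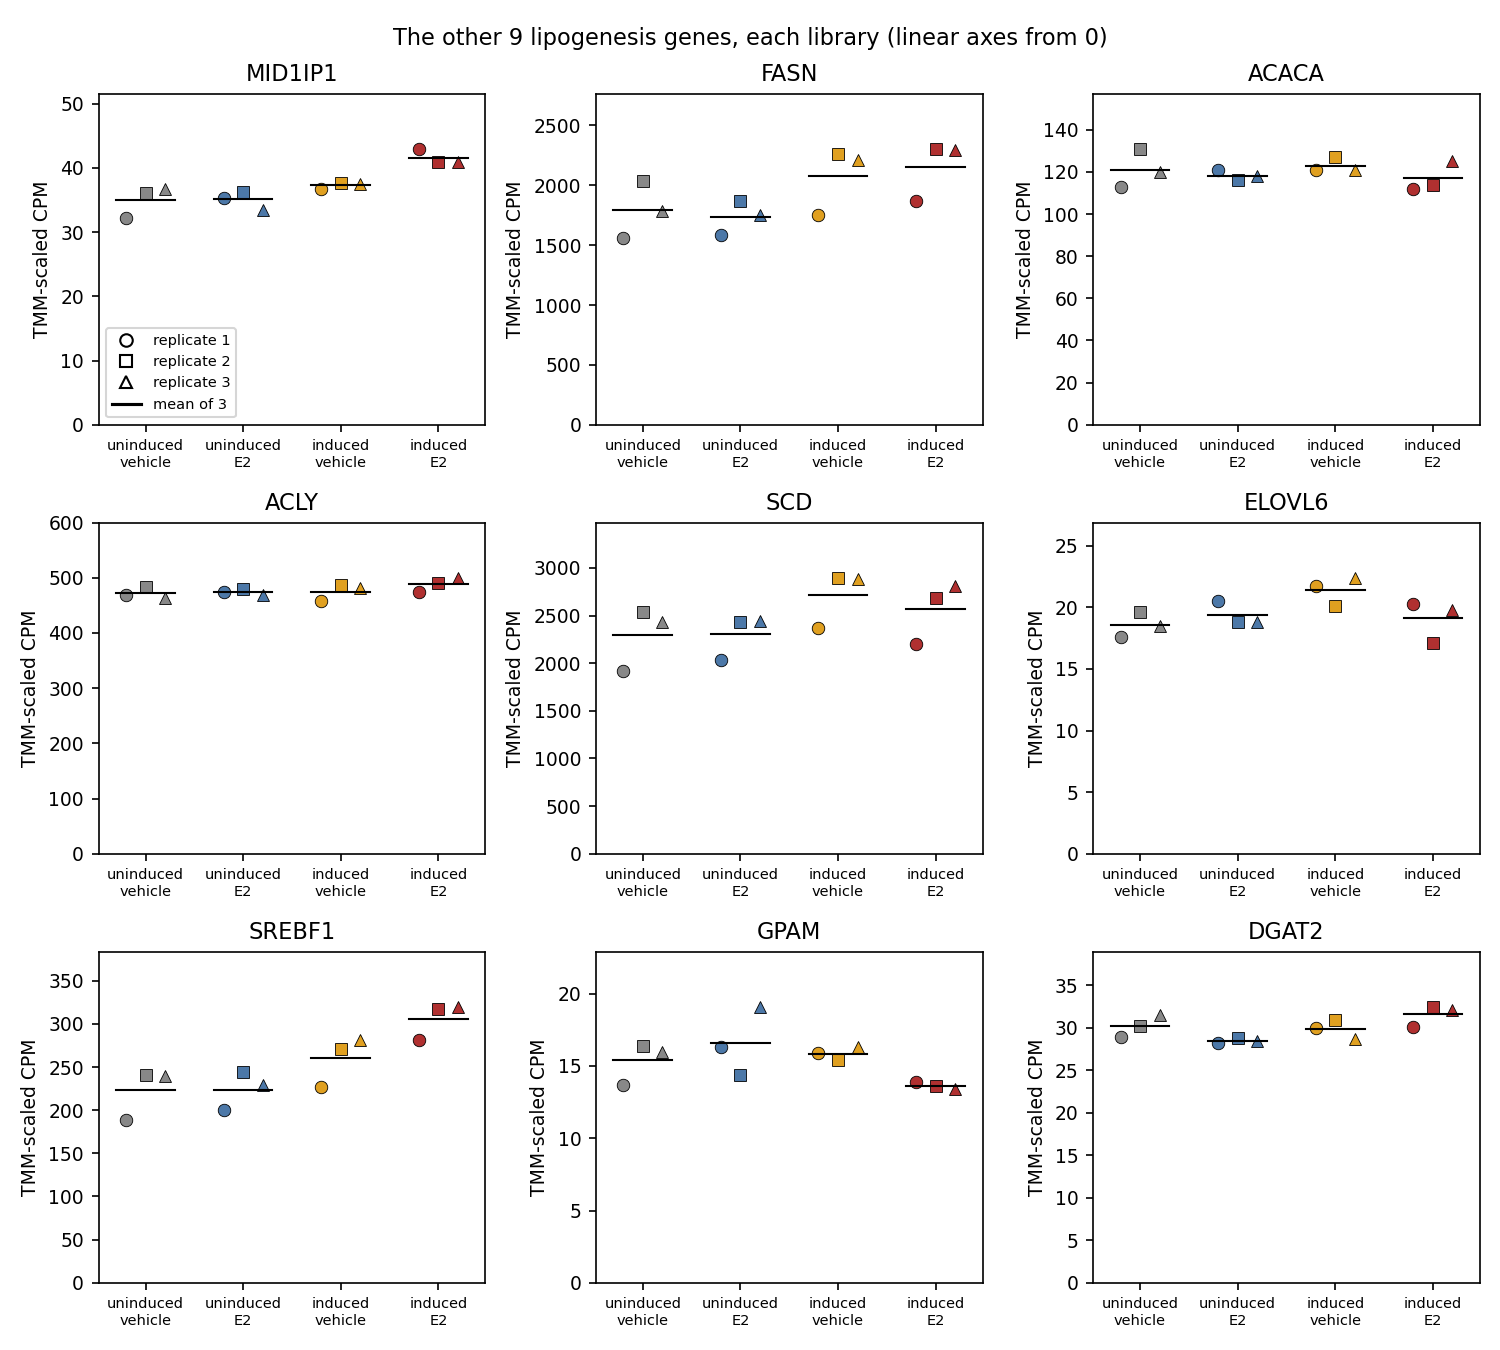
TMM-scaled CPM of the 9 genes other than THRSP in each library, on linear axes from 0, by group. Symbols give the replicate number and bars the mean of 3. Replicate 1 (circles) is the lowest library of all 4 groups for FASN, SCD and SREBF1, and ACLY stays between 457 and 500 CPM.

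FASN, SCD and SREBF1 shared a difference that follows the replicate number. In all 4 groups replicate 1 was the lowest library for each, below the mean of the other two by 0.19 to 0.35 log2 for FASN, 0.27 to 0.37 log2 for SCD and 0.18 to 0.35 log2 for SREBF1. Of all genes tested 10.7% had replicate 1 lowest in every group. Replicate 1 libraries also carry an earlier date in the deposited names and have fewer counts, and the part of date, lane and depth in this difference cannot be told apart. For the other members replicate 1 was lowest in 1 to 3 of the groups.

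Levels per length put the change of THRSP on the scale of the enzymes. In uninduced vehicle cells THRSP had the lowest mean of the 10, 2.59 ± 0.486 TPM (SD, n = 3), under GPAM at 5.19 ± 0.460 TPM. In induced vehicle cells it reached 23.7 ± 0.119 TPM, between DGAT2 at 26.4 ± 0.910 TPM and ELOVL6 at 14.2 ± 0.755 TPM. In induced E2 cells it reached 177 ± 28.7 TPM, the fourth in order, below ACLY at 234 ± 7.21 TPM and above SREBF1 at 128 ± 9.46 TPM.

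The order of the other genes was SCD, FASN, ACLY, SREBF1, MID1IP1, then ACACA and DGAT2, then ELOVL6 and GPAM. Their medians over the 12 libraries were 955 TPM for SCD, 460 TPM for FASN, 235 TPM for ACLY, 104 TPM for SREBF1 and 37.4 TPM for MID1IP1. ACACA at 26.5 TPM and DGAT2 at 26.3 TPM overlapped in every group and exchanged places between groups. All other neighbours in the order were separated in each group, in that the lowest library of the higher gene lay above the highest library of the next.

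**Figure D4:**
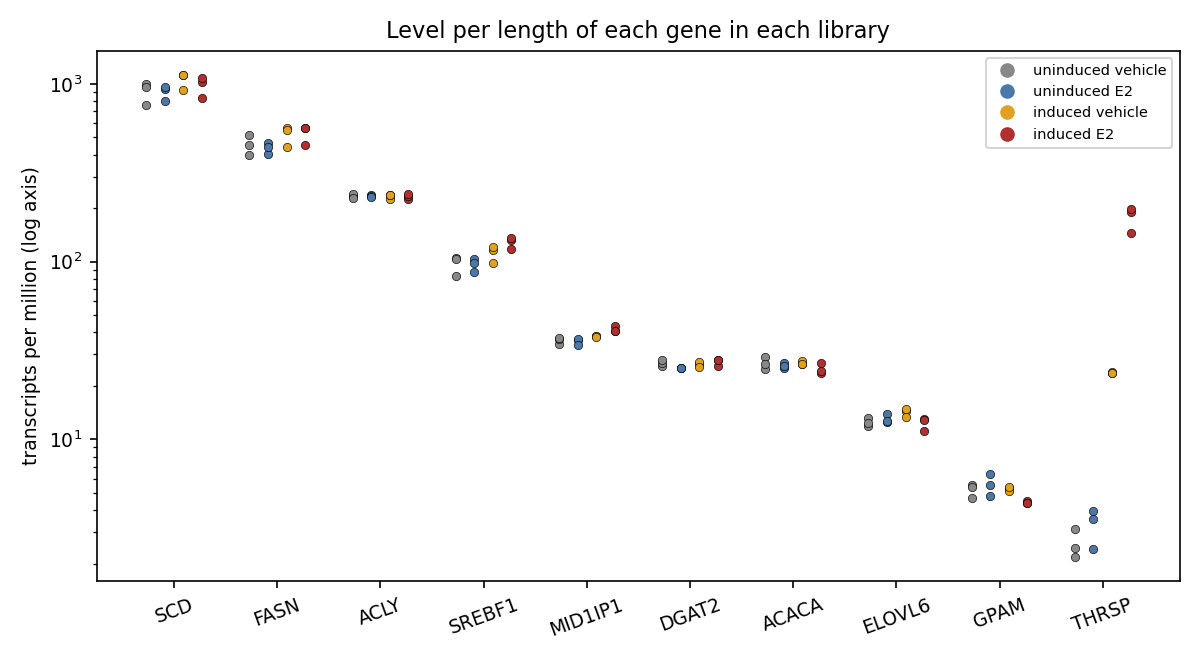
Level of each gene in TPM (log axis) in each of the 12 libraries, ordered by the uninduced vehicle mean and coloured by group. THRSP moves from 2.59 TPM, the lowest mean, to 177 TPM, between ACLY and SREBF1, and the other 9 genes hold their places apart from ACACA and DGAT2.

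Genes around these enzymes were taken from lists of the pathway. Of 17 tested genes of fatty acid synthesis and its carbon and NADPH supply, 5 rose and 3 fell for doxycycline with E2 (background 15.0% and 13.0%), with a median of 0.00 log2. They included ACSS2, which makes acetyl-CoA from acetate and rose by 0.39 log2 (adjusted p = 2.59e-06). PC, pyruvate carboxylase, rose by 0.29 log2 (adjusted p = 3.89e-04), and IDH1, an NADPH-producing dehydrogenase, fell by 0.23 log2 (adjusted p = 9.12e-04). The number that fell was 1 without uninduced E2 replicate 1 or induced E2 replicate 3. Members of this list thus moved in both directions, and each named change was under 1.5-fold.

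With E2 in induced cells 2 of these 17 rose and 1 fell (background 9.85% and 6.61%), and ACSS2 went from 168, 165 and 162 CPM to 200, 190 and 192 CPM (log2 0.23, SE 0.0385, adjusted p = 5.90e-04). The number that rose was 1 without induced vehicle replicate 1 or 3, or induced E2 replicate 2 or 3. Without induced vehicle replicate 1, 2 fell. With the block 3 rose and 3 fell (background 13.5% and 10.3%). Of 15 tested genes of elongation and desaturation 1 rose and 1 fell with E2 in induced cells, against the same background. The number higher was 0 without induced vehicle replicate 2 or 3 or induced E2 replicate 1 or 2, and 2 without induced vehicle replicate 1. The number lower was 0 without any 1 of the 3 induced vehicle libraries, induced E2 replicate 1 or 2, uninduced vehicle replicate 2 or uninduced E2 replicate 3. ELOVL5, an elongase of polyunsaturated chains, rose by 0.28 log2 for doxycycline with E2 (adjusted p = 4.19e-05).

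Genes that activate fatty acids by coupling them to CoA were also listed. Of 9 tested genes 2 rose and 1 fell with E2 in induced cells (background 9.85% and 6.61%), with a median of 0.01 log2. ACSL5 went from 4.82, 5.66 and 6.47 CPM in induced vehicle to 9.84, 9.88 and 9.71 CPM in induced E2 libraries (log2 0.78, SE 0.111, adjusted p = 1.59e-04). ACSL1 rose by 0.27 log2 (adjusted p = 3.50e-04) and ACSL3 fell by 0.38 log2 (adjusted p = 0.00561), so long-chain acyl-CoA synthetases moved in both directions. Of 13 tested genes of glycerolipid assembly 2 rose and 2 fell in that comparison (background 9.85% and 6.61%). AGPAT6, a glycerol-3-phosphate acyltransferase of the same step as GPAM, rose by 0.26 log2 (SE 0.0362, adjusted p = 1.36e-04). LPIN2, a phosphatidate phosphatase, fell by 0.25 log2 (adjusted p = 0.00176). In the glycerolipid list 1 rose without induced vehicle replicate 1 or 3 or induced E2 replicate 2 or 3, and 1 fell without induced vehicle replicate 2 or 3 or induced E2 replicate 1.

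Among the lipid lists the E2 changes in induced cells nearest in size to that of THRSP were of 2 lipid droplet genes, PLIN4 and PNPLA3. Of 14 tested genes 6 rose and 1 fell with E2 in induced cells (background 9.85% and 6.61%), with a median of 0.14 log2, and 3 rose without induced E2 replicate 2. PNPLA3, a lipase and acyltransferase of the droplet surface, held 12.1, 11.1 and 10.9 CPM in uninduced vehicle and 9.34, 10.9 and 10.3 CPM in uninduced E2 libraries. It held 16.3, 15.8 and 18.4 CPM in induced vehicle and 36.9, 45.1 and 41.5 CPM in induced E2 libraries. As with THRSP, both induced groups stood apart from each other and from the uninduced ones. PNPLA3 rose by 0.58 log2 for doxycycline without E2 (SE 0.0963, adjusted p = 0.00241) and by 1.30 log2 for E2 in induced cells (SE 0.0830, adjusted p = 6.33e-08). The droplet coat gene PLIN3 rose by 0.35 log2 with E2 in induced cells (adjusted p = 1.09e-04). PLIN4, another coat gene, rose by 1.83 log2 (adjusted p = 8.77e-05) at a low level, with 12 to 20 counts in induced vehicle and 42 to 81 in induced E2 libraries. C7orf68, the older symbol of HILPDA, which encodes an inhibitor of lipolysis, fell by 0.29 log2 (adjusted p = 0.00357).

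Of 31 tested genes that control lipogenesis, 6 rose and 2 fell with E2 in induced cells (background 9.85% and 6.61%), with a median of 0.03 log2. With the block 9 rose and 4 fell (background 13.5% and 10.3%). The number that fell was 1 without induced E2 replicate 2 or 3. USF2, a factor that binds E-boxes of lipogenic promoters, went from 160, 153 and 151 CPM to 216, 193 and 199 CPM (log2 0.39, SE 0.0453, adjusted p = 2.56e-05). PPARD, a fatty acid-sensing nuclear receptor, rose by 0.48 log2 (adjusted p = 1.58e-05) and PRKAG2, a regulatory subunit of AMP-activated kinase, by 0.56 log2 (adjusted p = 0.00166). For doxycycline without E2 0 of the 31 were called by edgeR (background 2.44% and 1.37%), or 1 higher and 1 lower with the block and 1 higher without induced vehicle replicate 2. For doxycycline with E2 9 rose and 4 fell (background 15.0% and 13.0%). THRA, the thyroid hormone receptor alpha gene, rose by 0.60 log2 (adjusted p = 8.35e-05). THRB, the thyroid hormone receptor beta gene, was called lower there (-1.12 log2, SE 0.234) and with E2 in induced cells (-0.92 log2, SE 0.242). With E2 in induced cells THRA rose by 0.32 log2 (SE 0.0847). That call ended without induced vehicle replicate 1 (adjusted p = 0.0506) or 2 (0.0517) or induced E2 replicate 2 (0.0862). The 2 receptor genes thus moved in opposite directions, with the THRA call narrow for E2 in induced cells.

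Of 22 tested genes of fatty acid oxidation 1 rose and 0 fell with E2 in induced cells (background 9.85% and 6.61%). That gene was CPT1A, the gate of mitochondrial import, which went from 110, 90.7 and 89.7 CPM to 139, 135 and 132 CPM (log2 0.49, SE 0.112, adjusted p = 0.00657). Without induced vehicle replicate 2, 1 fell. Of 8 tested genes of uptake and binding 1 rose and 1 fell, against the same background. The one that rose, the endothelial lipase gene LIPG, differed by 0.90 log2 and lost its call without induced vehicle replicate 2 (0.102) or 3 (0.0850) or induced E2 replicate 1 (0.0631). SLC27A3, the one that fell, lost its call when any 1 of 9 libraries was left out, with adjusted p up to 0.353.

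**Figure D5:**
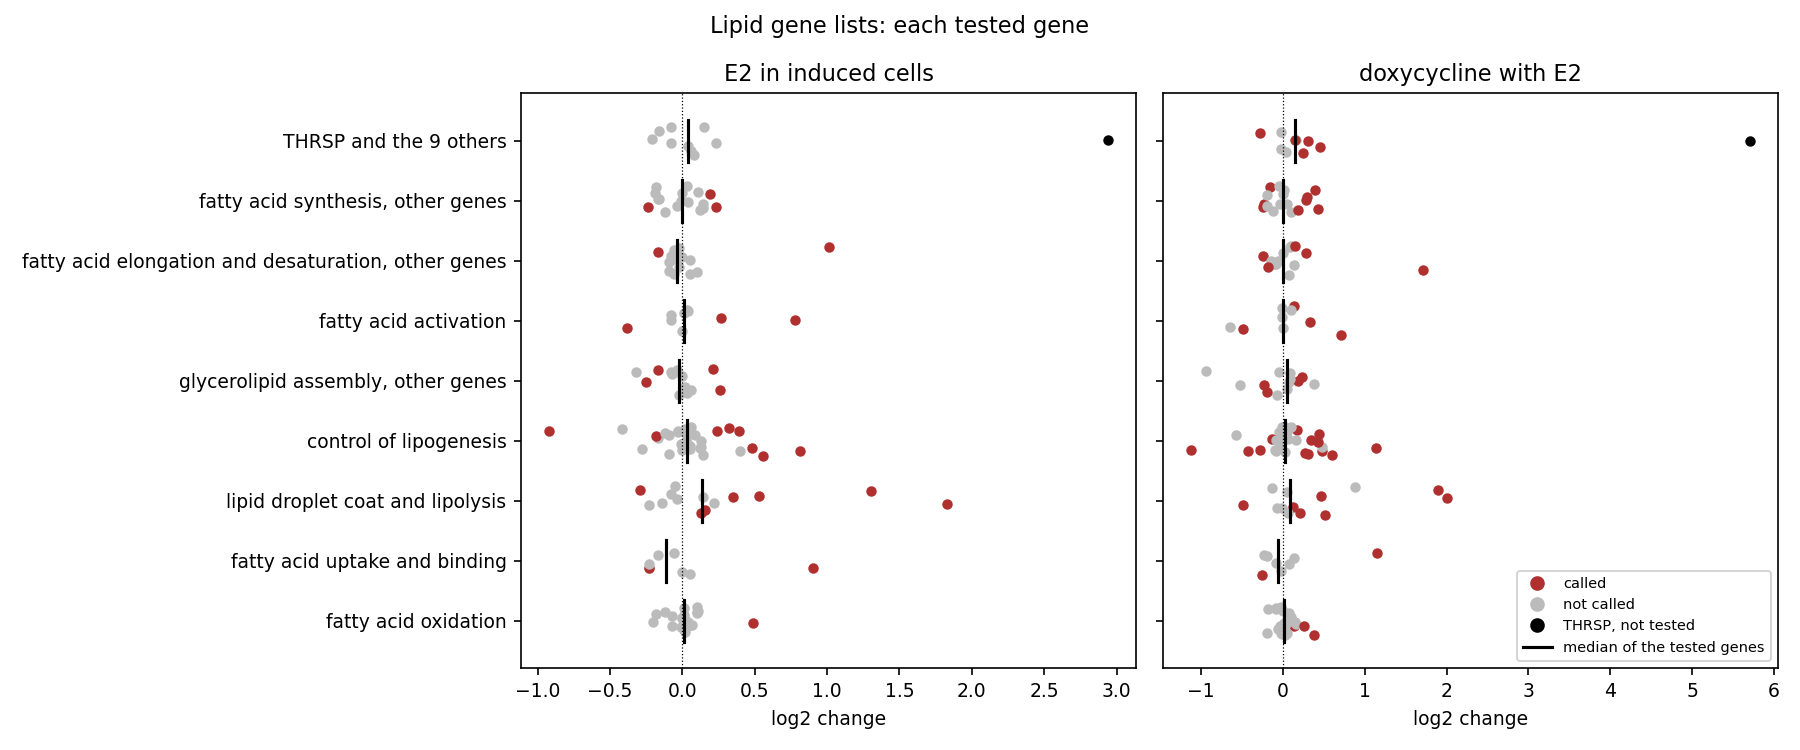
Log2 change of every tested gene of the lipid lists for E2 in induced cells (left) and doxycycline with E2 (right). Red points were called by edgeR, grey points were not, the black point is THRSP and vertical bars are medians. THRSP lies at 2.94 and 5.71, and the other genes of all lists lie between -1.12 and 2.01.

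The genes whose levels over the 12 libraries were most like those of THRSP were of other kinds. Likeness was the Pearson r of log2 CPM over the 12 libraries, ranked among 417 genes whose log2 CPM averaged 1 or more, with group means spanning at least 1 log2. Since the libraries form the same 4 groups, any gene with the same 2 steps has a high r. KCNC4, a potassium channel gene, had the highest value (0.998), followed by NCCRP1 (0.996), RIMS4 (0.996), the semaphorin gene SEMA3B (0.996) and TMEM229B (0.995). KCNC4 went from 29.2 ± 1.89 CPM (SD, n = 3) in uninduced vehicle to 50.7 ± 1.85 CPM in induced vehicle and 86.6 ± 0.240 CPM in induced E2 cells. SEMA3B went from 11.9 ± 1.84 to 31.5 ± 0.966 and 82.4 ± 4.85 CPM. The changes of all 5 were smaller than that of THRSP, with 1.12 to 3.22 log2 for doxycycline with E2.

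Among the 10 nearest protein-coding neighbours of THRSP, taken in RefSeq order with 5 on each side, 5 were called higher and 0 lower with E2 in induced cells (background 9.85% and 6.61%). For doxycycline with E2 6 were called higher and 0 lower (background 15.0% and 13.0%). With the block 7 were called higher in each (background 13.5% and 19.1%). Their log2 changes with E2 in induced cells ran from 0.02 to 0.55, against 2.94 for THRSP. GAB2, a signalling adaptor gene, held 162 to 215 CPM over the 12 libraries and rose by 0.33 log2 (SE 0.0355, adjusted p = 1.11e-05). USP35, a deubiquitinase gene, rose by 0.49 log2 (adjusted p = 0.00233) and the chromatin remodelling gene RSF1 by 0.23 log2 (adjusted p = 0.00312). KCTD21 rose by 0.24 log2 (adjusted p = 0.0150), and this call ended without induced vehicle replicate 2 (0.0692) or induced E2 replicate 2 (0.0908). For doxycycline without E2, where THRSP stood 3.14 log2 higher, 0 of the 10 were called by edgeR with or without the block. The background there was 2.44% higher and 1.37% lower, or 5.54% and 4.48% with the block.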

How the data were processed

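The authors deposited RSEM expected counts per gene and, in a further column, each gene's fraction of transcripts, which was scaled here to TPM. RSEM 1.1.16, DESeq 1.7.10 and hg19 are named in the submitters' processing notes, with no role given for DESeq. The sources used here name no aligner. After rounding, counts went into edgeR 4.0.16 (R 4.3.3), with TMM scaling, filterByExpr (minimum count 10, total 15), 1 mean per group, quasi-likelihood tests with 8 residual degrees of freedom and Benjamini-Hochberg adjustment over the 14541 genes of each comparison. Genes with an adjusted p under 0.05 were called. The method was tested on simulated data in which each library was drawn independently. That simulation therefore does not bear on deviations shared by replicate number.

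Same-numbered libraries correlated in their deviations from group means at 0.104 to 0.464 (18 pairs, 12376 genes), differently numbered ones at -0.427 to 0.278 (36 pairs). Since every same-numbered pair passed 0.1, the number was used as a block. Replicate 1 carries the earlier date in every group, so this check cannot tell pairing of libraries from a difference between dates. A block fit (6 residual degrees of freedom) is given for the members, the THRSP neighbours and part of the lists. In other lists it moved counts too. With E2 in induced cells 3 uptake and binding genes fell (background 10.3%). There 7 droplet and 2 elongation and desaturation genes rose (background 13.5%). For doxycycline with E2 6 synthesis and supply genes rose and 4 fell, and 11 control genes rose and 5 fell (background 19.1% and 18.2%). Alternatives included DESeq2 1.42.0, limma-voom in limma 3.58.1 and leaving out libraries.

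The members and gene lists were chosen with earlier results of these data known. Named by rule were all members, up to 3 called genes with the smallest p per list and comparison, the 5 genes most like THRSP and called neighbours. THRB was named outside this rule, beside THRA. One gene that the rule named is not reported here. Promoter sequences are from RefSeq on GRCh38.p14, another build than the counts.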

Additional observations from a re-analysis of the deposited data

Results flagged for a closer look

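Among the listed lipid and marker genes, the E2 change in induced cells differed from that in uninduced cells, by edgeR's interaction test over all genes at an adjusted p under 0.05, for 20 of 148 genes tested (the members not counted), 16 higher and 4 lower. Over all genes 5.66% were higher and 2.81% lower. None of the 9 genes tested beside THRSP was among them, except SREBF1 when the replicate block was added. The differences, as the log2 E2 change in induced minus uninduced cells, were positive for droplet genes, with PNPLA3 at 1.43, PLIN4 at 1.61 and PLIN3 at 0.37, and negative for C7orf68 at -0.46. For fatty acid activation they were 0.84 for ACSL5 and 0.24 for ACSL1, and for glycerolipid assembly 0.30 for AGPAT6 and -0.24 for LPIN2. For supply and elongation they were 0.20 for ACSS2, -0.26 for IDH1 and 1.74 for ELOVL3, an elongase gene at a low level. Control genes gave 0.46 for PPARD, 0.42 for USF2, 0.48 for THRA and 0.62 for PRKAG2. MID1 gave -0.48, and the epithelial genes CDH1, KRT18 and KRT8 and the receptor gene ERBB2 gave 0.94, 0.34, 0.26 and 0.21.

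Of these interaction calls, that of LPIN2 ended without any 1 of 9 libraries (adjusted p up to 0.112), that of ACSS2 without any 1 of 9 (up to 0.0995) and that of ELOVL3 without any 1 of 9 (up to 0.114). ERBB2 lost its call without any 1 of 6 libraries (up to 0.0742). PLIN4 and KRT8 each lost theirs without any 1 of 5 libraries, and ACSL1, PRKAG2 and THRA without any 1 of 3.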

How the results depend on the processing

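Of 1290 recomputed changes of single members, 1224 kept their direction and side of the threshold, 36 lost a call, 30 gained one and 0 reversed. The 1290 include THRSP, which was chosen for its rise. They also include E2 in uninduced cells, where 0% of all genes were called. Such entries could hardly move, so the 1224 do not measure how stable the other members were. The members called higher with E2 in induced cells numbered 0, but 1 with a minimum count of 50, 2 with the replicate block, 2 with the file date as a covariate and 1 in the later date alone. Those called lower numbered 1 with the block and 1 with the date. For doxycycline without E2 the number higher was 3 with the block, 3 with the date and 3 in the later date alone, against 0. For doxycycline with E2 it was 2 under upper quartile scaling, DESeq2, limma on log2(TPM + 1) and an adjusted p under 0.01, against 4. The number lower there was 0 with DESeq2, limma-voom, only the groups compared and an adjusted p under 0.01, against 1. For the interaction the number higher was 1 with the block, the date and the later date alone, against 0. Leaving out a library or a replicate number gave 0 to 1 higher for E2 in induced cells, 0 to 3 for doxycycline without E2, 0 to 5 higher and 0 to 1 lower for doxycycline with E2, and 0 to 1 for the interaction. The largest of these ranges came from leaving out a whole replicate number.

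Depth limits THRSP in uninduced cells, where 9 to 70 counts were found.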
